A study of Mus musculus with 22 samples.

Results

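Interferon-stimulated genes were examined in the lumbar spinal cord of mice with persistent joint pain that received SAFit2, an inhibitor of the co-chaperone FKBP51, or its Vehicle. The group holds 9 genes, chosen by symbol: Irf7, a transcription factor, Ifit1, Ifit3, Bst2, Oasl2 and Rtp4, antiviral effectors, Isg15 and Usp18, a ubiquitin-like modifier and the protease that removes it, and Ifi27, a small hydrophobic protein. All 9 of 9 were found among the 17306 genes measured, and all 9 passed the filter on low values that left 16765 genes to test (at least 5 libraries had to reach a log2 CPM of -1, where CPM is the read number of a gene scaled to library size). None of the 9 differed between SAFit2 and Vehicle mice beyond the error, at either timing. Their variation between mice of the same group was only weakly shared. That of Ifit1 and Irf7 followed a property of the library, its relation to the GC content of genes, in opposite directions. A GC-poor gene such as Ifit1 and a GC-rich gene such as Irf7 tend to do so by construction of that measure.

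Interferons are cytokines released when a cell detects foreign or misplaced nucleic acid. Type I interferons bind the receptor of Ifnar1 and Ifnar2, whose kinases Jak1 and Tyk2 set off a complex that holds Stat2 and Irf9 and binds the interferon-stimulated response element (ISRE) in the promoters of many genes. Type II interferon acts through another motif, the gamma-activated sequence. In the central nervous system the response is best known in microglia, and astrocytes, endothelial cells and neurons can mount it as well. A low level of many of these genes is kept up without infection.

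RNA sequencing was performed on the ipsilateral dorsal horn quadrant of the L4 to L6 spinal cord, as the paper names the tissue. It came from 22 male wildtype C57BL6J mice, 12 to 14 weeks old. The tissue was taken on day 30 after monoiodoacetate (MIA, 1 mg) was injected into the knee joint, which all mice received. There were 5 mice in Early SAFit2, 6 in Early Vehicle, 5 in Late SAFit2 and 6 in Late Vehicle. SAFit2 (100 mg/kg) was given in a vesicular phospholipid gel (VPG) that releases it slowly, on days -3 and 4 in early and days 20 and 27 in late mice, and Vehicle mice received VPG alone on the same days. In the labels the early days read 3 and 4, and the 5 Early SAFit2 samples carry SAFit1 in their titles but SAFit2 as treatment, which was used. By their batch label, early and late mice were separate batches, so that a difference between them cannot be told apart from a batch difference. No mouse went without MIA, so the level of these genes in the absence of joint pain was not measured. Libraries held 11352989 to 24433349 reads on genes (median 17732341). Summed marker levels were those of spinal cord, with 3207 to 4762 CPM over 6 of 6 neuronal and 13194 to 30023 CPM over 4 of 4 oligodendrocyte genes. The 12 of 12 microglial markers summed to 326 to 405 CPM in early mice and to 405 to 484 CPM in late mice. Schwann cell markers (3 of 3) ranged in Late SAFit2 from 129 to 3936 CPM, against 751 to 1704 CPM in Late Vehicle, and skeletal muscle markers (5 of 5) reached 143 and 196 CPM in Late SAFit2 mice 5 and 3, against at most 8.92 CPM in all other mice. As the tissue was measured in bulk, fewer cells of a type and less RNA per cell cannot be told apart.

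Promoter sequences were looked up first, because the ISRE is the element through which type I interferon reaches these genes. RefSeq windows of GRCm38.p6, from 250 bases before to 50 bases after the start of transcription, were at hand for 6 of the 9 members (Ifit1, Ifit3, Irf7, Isg15, Bst2 and Oasl2), and none was used for Usp18, Rtp4 and Ifi27. The ISRE core was searched as GAAANNGAAA, or TTTCNNTTTC on the other strand, and was present in 4 of the 6. The 200 bases before the start of these 4 genes are given 5′ to 3′ in the direction of the gene, with the matches in capitals (overlapping matches run together).
Ifit1 (chr19:34640689-34640888, plus strand): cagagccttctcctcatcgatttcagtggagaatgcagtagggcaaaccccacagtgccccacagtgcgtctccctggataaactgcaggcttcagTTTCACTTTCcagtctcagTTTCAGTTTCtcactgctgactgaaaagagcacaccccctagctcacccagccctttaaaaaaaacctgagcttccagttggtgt
Ifit3 (chr19:34583329-34583528, plus strand): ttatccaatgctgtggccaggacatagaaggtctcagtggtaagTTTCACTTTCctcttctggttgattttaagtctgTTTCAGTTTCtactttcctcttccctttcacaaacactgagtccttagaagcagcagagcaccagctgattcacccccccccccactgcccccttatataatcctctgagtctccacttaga
Isg15 (chr4:156200819-156201018, minus strand): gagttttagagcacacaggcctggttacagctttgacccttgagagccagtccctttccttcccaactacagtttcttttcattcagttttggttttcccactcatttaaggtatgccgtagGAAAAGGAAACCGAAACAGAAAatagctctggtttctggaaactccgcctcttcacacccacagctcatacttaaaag
Bst2 (chr8:71537473-71537672, minus strand): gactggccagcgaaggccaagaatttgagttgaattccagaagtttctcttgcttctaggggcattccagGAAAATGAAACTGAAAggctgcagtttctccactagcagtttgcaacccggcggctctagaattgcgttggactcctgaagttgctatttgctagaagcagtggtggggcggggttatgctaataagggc
In Ifit1 the 2 matches began 104 and 85 bases before the start, and in Ifit3 the 2 matches began 156 and 122 bases before it, all of them on the strand opposite to the gene. In Isg15 there were 3 overlapping matches, 78, 72 and 66 bases before the start, and in Bst2 there were 2, at 130 and 124 bases, on the strand of the gene. The core was held by 3.44% of all 32851 promoter windows. Counted by gene, with a match in any of its windows, it was held by 3.66% of 12575 tested genes and by 38 of 99 (38.4%) other interferon pathway genes. The core of the gamma-activated sequence, TTCNNNGAA on either strand, was found in Bst2 alone among the 6, at 136 bases and overlapping the ISRE core, against 8.30% of all windows. In the windows of Irf7 and Oasl2 these letters did not occur. A match is a run of letters, and no binding was measured.

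Compared per length of transcript, the 9 genes spanned a wide range of levels. Ifi27 was highest, with 24.5 ± 3.45 CPM per kb (SD, n = 22), followed by Ifit3 with 13.3 ± 3.27. Bst2 (4.90 ± 1.38), Isg15 (3.55 ± 1.17), Ifit1 (2.57 ± 1.02), Oasl2 (2.04 ± 0.400) and Rtp4 (2.04 ± 0.647) lay between 2 and 5 CPM per kb. Usp18 (0.772 ± 0.285) and Irf7 (0.625 ± 0.212) were lowest. For Ifit3, 41.1% of the 75-base stretches of its longest transcript also occur in Ifit3b, so that its reads may be split between the pair, and its values are uncertain to that extent. The share was 12.4% for Rtp4, with Gm45338, and 5.19% for Ifit1, with Ifit1bl2, and 0 for the other members.

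With the groups of a member ordered by mean, no neighbours differed by more than the larger of their SDs. Set against the SD of mice within all 4 groups, only Ifit3 had a larger gap, of 0.305 log2 CPM between Late SAFit2 and Early Vehicle (SD 0.296). The highest mean was in Late SAFit2 for Ifit1, Ifit3, Oasl2, Rtp4 and Ifi27, in Early Vehicle for Irf7, Isg15 and Usp18, and in Late Vehicle for Bst2.

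**Figure D1:**
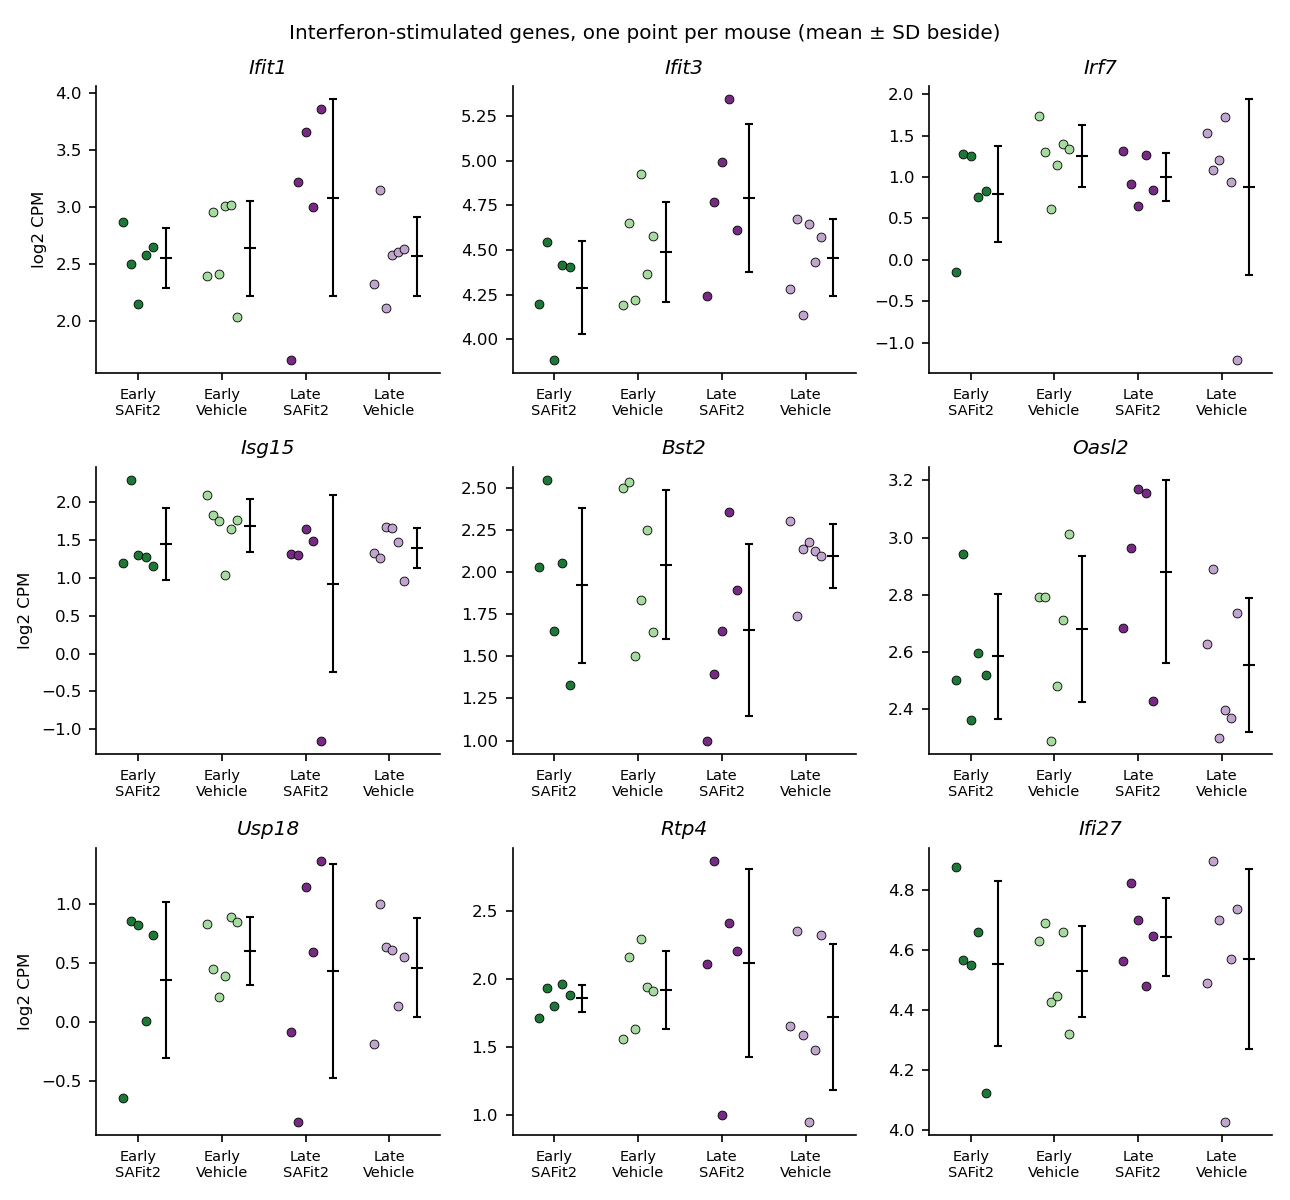
Log2 CPM of the 9 interferon-stimulated genes (vertical axis, own scale in each panel) in the 4 groups, a point per mouse, with the mean and SD of each group beside the points. Groups overlap in every panel, and single mice stand apart in Irf7 (Late Vehicle, -1.21) and Isg15 (Late SAFit2, -1.15).

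Ifit1 (Entrez gene 15957, chromosome 19, 34640871 to 34650009, GRCm38) encodes a protein that binds viral RNA lacking the host cap and blocks its translation. Its log2 CPM in Late SAFit2 mice was 1.66, 3.00, 3.23, 3.66 and 3.87. In Late Vehicle mice it was 2.12, 2.33, 2.58, 2.61, 2.63 and 3.15. Of the 5 Late SAFit2 mice, 3 lay above all Late Vehicle mice, while Late SAFit2 mouse 1 lay below all of them. The means were 3.08 ± 0.87 (SD, n = 5) and 2.57 ± 0.35 (SD, n = 6) log2 CPM, a log2 fold change of 0.51 (95% interval -0.08 to 1.11, limma adjusted p = 0.209; exact permutation p = 0.212). In early mice values ran from 2.15 to 2.87 with SAFit2 and from 2.04 to 3.02 with Vehicle, a log2 fold change of -0.09. Without Late SAFit2 mouse 1 the late log2 fold change of Ifit1 was 0.87, with an limma adjusted p of 0.019.

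Ifit3 (Entrez gene 15959, chromosome 19, 34583531 to 34588731) lies beside Ifit1 in the same cluster, and its product binds Ifit1 and stabilises it. In Late SAFit2 mice its log2 CPM was 4.24, 4.61, 4.77, 4.99 and 5.35, and in Late Vehicle mice it ran from 4.13 to 4.67 with a median of 4.50. Late SAFit2 mouse 1 was again the lowest of its group, and 3 of the other 4 lay above all Late Vehicle mice. The late log2 fold change was 0.34 (95% interval -0.02 to 0.69, limma adjusted p = 0.167; exact permutation p = 0.117). Early SAFit2 mice lay at 3.88, 4.20, 4.40, 4.42 and 4.54 and Early Vehicle mice between 4.19 and 4.92 (median 4.47), a log2 fold change of -0.20. The early effect minus the late effect was -0.53 (SE 0.24, limma adjusted p = 0.178). Its exact permutation p was 0.0446 over 213444 arrangements of mice within both timings. These arrangements assume no effect of SAFit2 at either timing, so that p is not a test of equal effects. Ifit3 was the only one of the 9 members with an unadjusted limma p under 0.05 for this difference. The difference was -0.32 after removal of the trend of each library with GC content and length. Without Late SAFit2 mouse 1 the late log2 fold change of Ifit3 was 0.47 (limma adjusted p = 0.048).

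Oasl2 (Entrez gene 23962, chromosome 5, 114896936 to 114912234), related to the synthetases that activate RNase L, was likewise higher in part of the Late SAFit2 mice. Late SAFit2 mice lay at 2.43, 2.68, 2.96, 3.16 and 3.17 log2 CPM, and Late Vehicle mice between 2.30 and 2.89 (median 2.51). Of the Late SAFit2 mice, 3 were above all Late Vehicle mice, but mouse 5 was below the Late Vehicle median, and the log2 fold change of 0.33 was within the error (95% interval -0.05 to 0.71, limma adjusted p = 0.211; exact permutation p = 0.0779). Early means were 2.58 ± 0.22 with SAFit2 (SD, n = 5) and 2.68 ± 0.26 with Vehicle (SD, n = 6).

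Rtp4 (Entrez gene 67775, chromosome 16, 23520291 to 23614222), a chaperone of taste and opioid receptors that also restrains flaviviruses, spread widely in late mice. Late SAFit2 mice lay at 1.00, 2.11, 2.20, 2.41 and 2.86 log2 CPM, and Late Vehicle mice between 0.95 and 2.35 (median 1.62). The lowest Late SAFit2 mouse was here mouse 3, not mouse 1, and the log2 fold change of 0.39 was within the error (95% interval -0.18 to 0.97, limma adjusted p = 0.323; exact permutation p = 0.301). Early SAFit2 mice differed among themselves by little, from 1.71 to 1.96.

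Bst2 (Entrez gene 69550, chromosome 8, 71534255 to 71537456) encodes tetherin, which holds budding virions on the cell surface. It ran opposite to the Ifit genes in late mice, with 1.00, 1.39, 1.65, 1.89 and 2.36 log2 CPM in Late SAFit2 and 1.74 to 2.30 in Late Vehicle mice, of which 5 of 6 lay between 2.10 and 2.30. Of the Late SAFit2 mice, 3 lay below all Late Vehicle mice and 1 above them. The log2 fold change was -0.44 (95% interval -0.97 to 0.10, limma adjusted p = 0.233; exact permutation p = 0.0736, the lowest of the 9 late values). In early mice Bst2 differed by -0.12.

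Isg15 (Entrez gene 100038882, chromosome 4, 156199424 to 156200818) encodes the ubiquitin-like protein that is attached to targets during the response. Late SAFit2 mouse 5 stood apart at -1.15 log2 CPM, which is 3 reads, while the other 4 Late SAFit2 mice lay between 1.31 and 1.65. Late Vehicle mice lay between 0.97 and 1.67 (median 1.40). The late log2 fold change of -0.47 (95% interval -1.23 to 0.29, limma adjusted p = 0.373) rested on that mouse and was 0.05 without it. Of the 22 mice, Late SAFit2 mouse 5 had the highest summed level of Schwann cell (3936 CPM), meningeal and fibroblast (602 CPM, 6 of 6 genes) and neutrophil markers (28.2 CPM, 5 of 5 genes), and the part of these in its Isg15 value was not tested. In early mice Isg15 was 1.45 ± 0.48 with SAFit2 (SD, n = 5) and 1.69 ± 0.35 with Vehicle (SD, n = 6), the highest Early SAFit2 mouse lying at 2.29 and the other 4 between 1.16 and 1.31.

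Usp18 (Entrez gene 24110, chromosome 6, 121245906 to 121270917) encodes the protease that removes Isg15 and that also blocks Ifnar2 from signalling. In Late SAFit2 mice its log2 CPM ran from -0.85 (6 reads) to 1.37, and the means of Late SAFit2 (0.44 ± 0.91, SD, n = 5) and Late Vehicle (0.46 ± 0.42, SD, n = 6) were close, with a log2 fold change of -0.03. In early mice the log2 fold change was -0.25, with a lowest Early SAFit2 mouse at -0.64 (8 reads).

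Irf7 (Entrez gene 54123, chromosome 7, 141262706 to 141266481), the transcription factor that amplifies production of interferon alpha, had a wide spread in Late Vehicle mice. Late Vehicle mice lay at -1.21, 0.94, 1.09, 1.21, 1.53 and 1.72 log2 CPM, the lowest being mouse 6 with 4 reads. Late SAFit2 mice lay at 0.65, 0.85, 0.92, 1.27 and 1.32, inside the range of the Vehicle mice. The late log2 fold change of 0.12 turned to -0.30 without Late Vehicle mouse 6. In early mice the log2 fold change was -0.46 (95% interval -1.26 to 0.34), the largest early value of the 9, with a lowest Early SAFit2 mouse at -0.14 (12 reads).

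Ifi27 (Entrez gene 52668, chromosome 12, 103434211 to 103440239) had the smallest standard error of the 9 genes (0.14). All 22 mice lay between 4.03 and 4.90 log2 CPM, and the log2 fold changes were 0.03 in early and 0.07 in late mice (late 95% interval -0.22 to 0.37).

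Over the 9 genes, 8 early log2 fold changes were below 0, and the median of the 9 was -0.12, where the median gene of the table had 0.01. In late mice 6 were above 0, and the median of the 9 was 0.12, where the median gene had -0.05. Standard errors were 0.14 to 0.39. For the early effect limma called 0 of 9 members (a call needs an adjusted p under 0.05 with at least a 1.2-fold change) and 0 had an unadjusted p under 0.05, against calls of 0% of all genes, of which 416 of 16765 had an unadjusted p under 0.05 and limma voom on the recovered reads also called 0. Exact permutation p-values of the 9 genes were 0.139 to 0.835 in early mice. For the late effect it called 0 of 9 (0 at an unadjusted p under 0.05, and 0 by voom), against 12.1% of all genes and 5791 of 16765 at an unadjusted p under 0.05, with exact permutation p-values of 0.0736 to 0.946. For the mean of both effects 0 of 9 had an unadjusted p under 0.05 in limma, and 0 in voom, against 13.2% of all genes. For the early minus the late effect limma and voom called 0 of 9, against 0% of all genes, and 1 of 9 (Ifit3) had an unadjusted p under 0.05 in limma, against 4167 of 16765 genes. Between Late and Early Vehicle mice, a comparison in which timing and batch cannot be told apart, limma and voom called 0 of 9 (0 at an unadjusted p under 0.05), against 9.11% of all genes and 4072 of 16765 at an unadjusted p under 0.05, with log2 fold changes from -0.38 to 0.05. The groups lay apart without overlap in 0 of 9 members, against 0.352% of all genes in the early, 1.71% in the late and 4.92% in the Vehicle comparison, so that 0 of 9 is near the background.

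**Figure D2:**
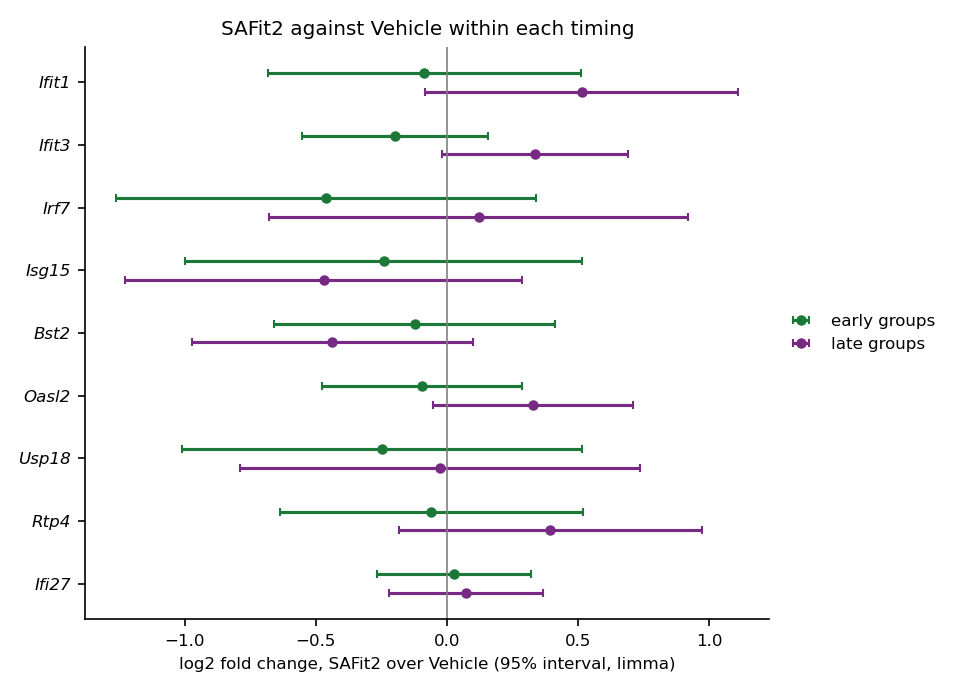
Log2 fold change of SAFit2 over Vehicle (horizontal axis) of the 9 interferon-stimulated genes (rows), in early and in late groups, with 95% intervals from limma. All 18 intervals include 0, with late values of 0.51 for Ifit1 and 0.34 for Ifit3 above it and of -0.47 for Isg15 and -0.44 for Bst2 below it.

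Calls of members appeared only when a single mouse was left out. Without Late SAFit2 mouse 1 limma called 2 of 9 members in late mice, Ifit1 and Ifit3, against 21.1% of all genes. For the mean effect it called 1 of 9, Ifit1 (log2 fold change 0.39), against 17.8% of all genes. Both counts are near the background. The late calls over all genes rose from 2021 to 3537 without that mouse. Late SAFit2 mouse 1 held 2 of 9 members above the mean of its group, against 7 of 9 in Late SAFit2 mouse 4.

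Whether the members vary together was asked within groups, by correlating deviations from group means over the 22 mice. Over the 36 pairs the median Pearson r was 0.15, from -0.41 (Ifit1 with Isg15) to 0.54, and 23 of 36 pairs were above 0. An r of at least 0.5 was reached by 3 of 36 pairs (8.33%), against 4.66% of the pairs of a member with any other gene. With 100000 permutations of mice within groups, 3 pairs had an unadjusted p under 0.05 and 0 an adjusted p under 0.05 over the 36 (lowest adjusted p 0.448).

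Ifit3 and Oasl2 had the highest r, 0.54 (rho = 0.59, permutation p = 0.0249, adjusted p = 0.448). It was 0.36 in early and 0.68 in late mice, and 0.47 without the 2 mice farthest from the median of Ifit3. Isg15 and Oasl2 followed with 0.53 (rho = 0.40, permutation p = 0.0248, adjusted p = 0.448), which dropped to 0.23 without the 2 mice farthest from the median of Isg15. Ifit1 and Ifit3, neighbours in the genome that both hold the ISRE core, had an r of 0.52 (rho = 0.46, permutation p = 0.0599, adjusted p = 0.539), with 0.44 in early and 0.57 in late mice and 0.47 without the 2 farthest mice. Among the 16764 other genes, Ifit3 ranked 139 by likeness to Oasl2, and Oasl2 ranked 304 by likeness to Ifit3. Irf7 and Isg15 were the third pair with an unadjusted p under 0.05 (r = 0.30, permutation p = 0.0397).

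With the GC and length trend of each library removed, the median r was 0.13, and 1 of 36 pairs (2.78%) reached 0.5, against 3.16% of pairs with any other gene. The pairs named kept an r of 0.48 (Ifit3 and Oasl2), 0.51 (Isg15 and Oasl2) and 0.39 (Ifit1 and Ifit3). With the deposited values, early mice alone gave a median of 0.15 and late mice alone of 0.01. The members were also correlated with the 119 tested genes of the wider pathway. In the deposited values the median r was 0.09 over 1071 pairs, of which 6.44% reached 0.5, against 4.66% of pairs with any other gene. With the trend removed it was 0.08, and 6.26% reached 0.5, against 3.16%.

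**Figure D3:**
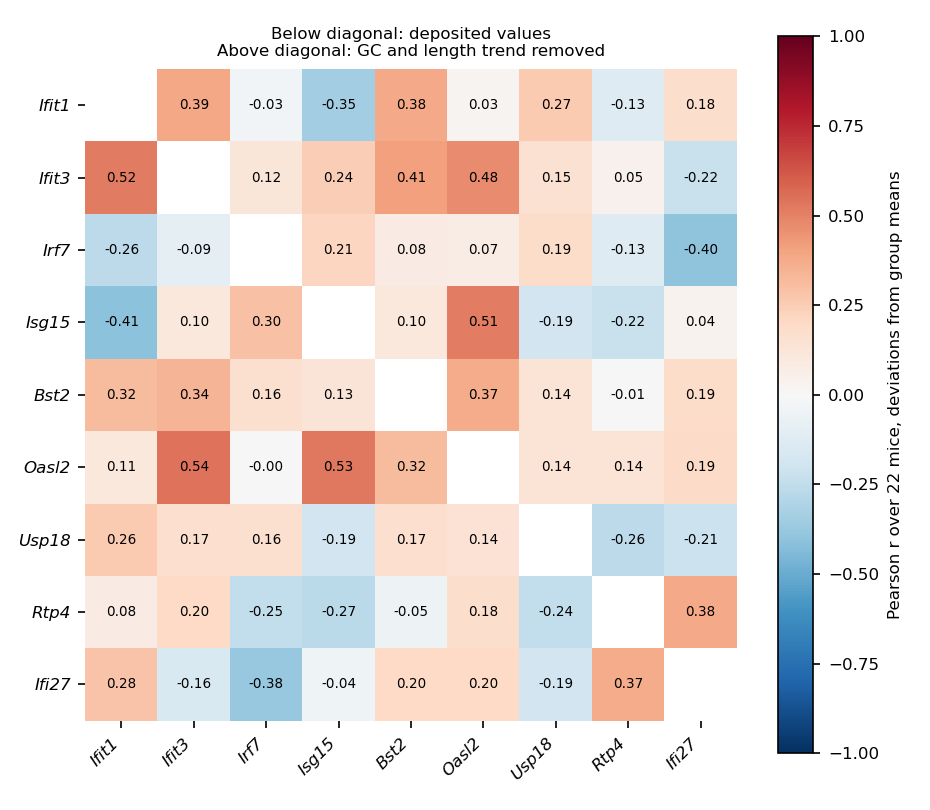
Pearson r between the 9 interferon-stimulated genes over 22 mice, from deviations from group means, coloured from blue (negative) to red (positive). Below the diagonal are the deposited values (3 of 36 pairs at 0.5 or above) and above it the values with the GC and length trend of each library removed (1 of 36 pairs).

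The genes most alike to each member over the 22 mice were mostly neither members nor among the 119 tested genes of the wider pathway. For Oasl2 they were Gvin-ps3 (r = 0.76), Irgm2 (r = 0.71), an interferon-induced GTPase, and Gpr155 (r = 0.69). For Bst2 they included Fam219b (r = 0.75) and Gbp4 (r = 0.73), also an interferon-induced GTPase. With the GC and length trend removed, the genes most alike to Bst2 were B2m (r = 0.80), the light chain of MHC class I, Col4a5 (r = 0.77) and the GTPase Iigp1 (r = 0.77).

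For Ifit1 the most alike were Rad51c (r = 0.90), Onecut2 and Cd55 (both r = 0.84), for Ifit3 they included Rars2 and Dleu2 (r = 0.75 to 0.77), and for Irf7 Fes (r = 0.91), Tspan14 and Hmg20b (r = 0.83 to 0.84). For Isg15 they were Hvcn1 (r = 0.91), Nudt8 and Gal3st4 (r = 0.89 to 0.90), for Usp18 Tmem138, I730030J21Rik and Sostdc1 (r = 0.77 to 0.79), for Rtp4 Cggbp1, Letm2 and Tifa (r = 0.76 to 0.80), and for Ifi27 Alkbh1, Nmrk1 and E230015B07Rik (r = 0.74 to 0.77). They are among the 3 highest of 16764 values each, so a high r is given by the choice.

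Each library has a GC slope, which is how much its log2 CPM, set against the average library, changes per 10 percentage points of GC content of the longest transcript. A positive slope means that GC-rich genes read higher. The slope is fitted over all tested genes, so GC-rich genes tend to rise with it and GC-poor genes to fall, by construction. Late SAFit2 mice had slopes of -0.475 to -0.0532 (median -0.330). Late Vehicle mice had -0.321 to 0.489 (median 0.300), and mice 6 and 2 were the only ones of that group below 0. In Early SAFit2 it ran from -0.164 to 0.261 and in Early Vehicle from -0.236 to 0.311. Late SAFit2 mouse 1 had the slope nearest to 0 of its group.

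Within groups, Irf7 (GC content 55.4%) rose with the slope over the 22 mice (r = 0.66, rho = 0.60, permutation p = 0.00634, adjusted p = 0.0285 over 9 genes). The r was 0.67 in early and 0.65 in late mice, and 0.55 without the 2 mice with the slope farthest from the median. Ifit1 (GC content 43.3%) fell with the slope (r = -0.53, rho = -0.67, permutation p = 0.00433, adjusted p = 0.0285), with r = -0.61 in early and -0.51 in late mice, and -0.56 without the 2 farthest mice. The other members did not pass by r. Rtp4 had an r of -0.50 and Isg15 of 0.38 (adjusted permutation p = 0.0735 for both), though their rho passed (-0.59 and 0.54, adjusted permutation p = 0.0237 and 0.0210), and the r of Rtp4 was -0.30 without the 2 farthest mice. Ifit3 had an r of -0.42, and Ifi27, Oasl2, Usp18 and Bst2 lay between -0.26 and 0.05. Bst2 has a GC content of 55.3%, nearly that of Irf7, and an r of 0.05. The share of all tested genes that pass was not counted, so a pass is not shown to be particular to these members.

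**Figure D4:**
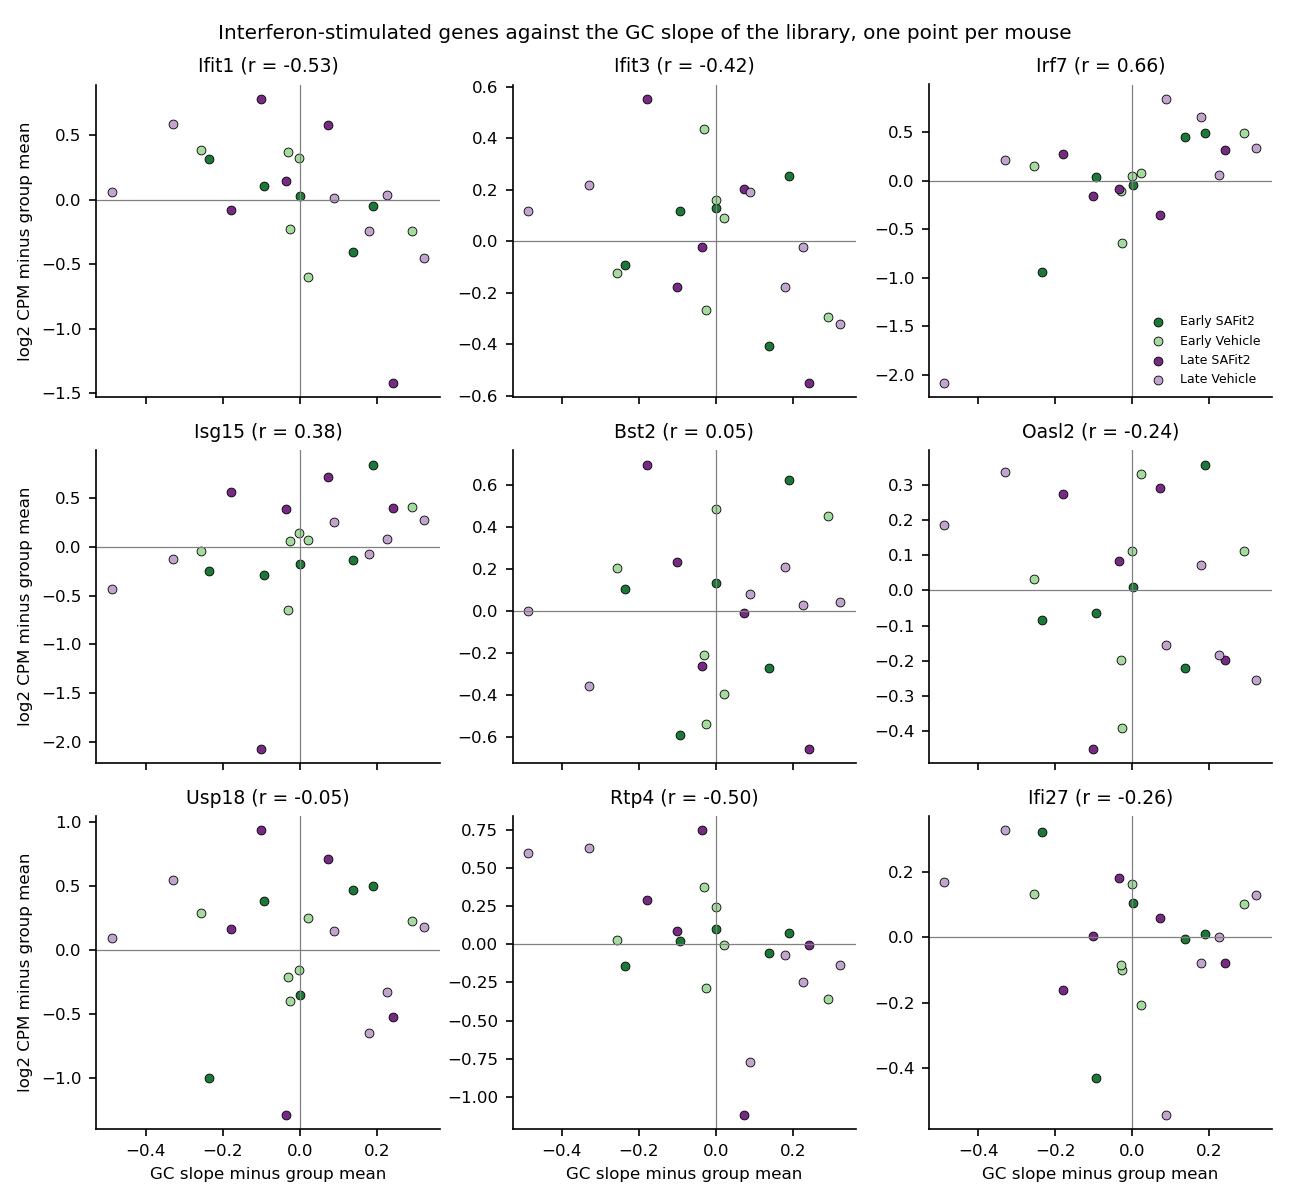
Log2 CPM minus the group mean (vertical axis) of the 9 interferon-stimulated genes against the GC slope of the library minus its group mean (horizontal axis), a point per mouse, coloured by group. Irf7 rises (r = 0.66) and Ifit1 falls (r = -0.53) along the axis, while Usp18 (r = -0.05) and Bst2 (r = 0.05) show no slope.

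As the median slope was negative in Late SAFit2 and positive in Late Vehicle, the late values were read again with the trend removed. The late log2 fold change of Ifit1 was then 0.21 instead of 0.51, that of Ifit3 0.20 instead of 0.34 and that of Irf7 0.42 instead of 0.12. That of Bst2 was -0.28 instead of -0.44. Oasl2 (0.31), Rtp4 (0.32) and Isg15 (-0.43) moved less than these. Any response to SAFit2 that itself tracks GC content is removed with it.

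The members were set beside 135 other genes of the interferon pathway, of which 121 were in the table and 119 were tested. Among the 135 were 9 genes of the interferons themselves, of which 0 were in the table. In early mice limma called 0 of the 119 (2 at an unadjusted p under 0.05), and voom 0. Of all 16765 genes it called 0 (416 at an unadjusted p under 0.05). In late mice limma called 15 higher (12.6%) and 3 lower (2.52%) with SAFit2, against 5.33% of all genes higher and 6.72% lower. The 18 of 119 together are 15.1%, near the 12.1% of all genes. The median late log2 fold change was 0.11, against -0.05 over all genes. With median centring of libraries the list had 20 higher and 3 lower, while all genes had 1139 higher and 924 lower instead of 894 and 1127.

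Of 9 receptor and kinase genes 0 were called in late mice, and the log2 fold change was -0.00099 for Ifnar1 and 0.36 for Ifnar2 (limma adjusted p = 0.0718). Among transcription factors, Stat2 and Irf9, parts of the ISRE-binding complex, had log2 fold changes of 0.07 and -0.01, and Irf1 of -0.16, and none of these passed. Of 14 sensors of nucleic acid 2 were higher, Ddx58, the sensor RIG-I (0.50), and Tlr3, the endosomal receptor for double-stranded RNA (0.65). Of 7 negative regulators 2 were lower, Socs1, an inhibitor of Jak kinases (-1.34, limma adjusted p = 0.0426), and Irf2bp1, a corepressor (-0.86, limma adjusted p = 0.0324).

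Of 50 other antiviral genes 7 were higher and 0 lower. Parp14, an ADP-ribosyltransferase, was at 2.38 to 3.31 log2 CPM in Late SAFit2 and 1.54 to 2.25 in Late Vehicle mice without overlap (log2 fold change 0.80, limma adjusted p = 0.0331). Slfn5 (0.65) and Eif2ak2, the kinase PKR (0.67), were higher as well, with overlapping groups. Rsad2, or viperin (0.81), and Ifit2 (0.56), close relatives of the members in function, did not pass (limma adjusted p = 0.0574 and 0.0681). Of 31 GTPase and inflammation genes 5 were higher and 1 lower, with Gbp7, a guanylate-binding protein, at 0.91 (limma adjusted p = 0.0324) and Psmb10, an immunoproteasome subunit, at -0.57 (limma adjusted p = 0.0438). Cxcl10, a chemokine often read as a sign of interferon, had 0.51 (limma adjusted p = 0.61).

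The late calls of the wider pathway fell along GC content. All 15 of the higher genes had a GC content below the median of tested genes (49.7%), from 39.6% to 46.8%, and all 3 lower genes were above it, from 56.5% to 63.6%. Over all genes called in late mice, 98.2% of the higher and 3.77% of the lower genes were below the median. Of the 9 members, 4 were below it. With the GC and length trend removed limma called 0 of the 119 and 0 of all 16201 genes with a GC content. The count was 7 of 119 (5.88%) with voom (6 higher, 1 lower), against 5.23% of all genes. It was 0 when only the late mice were fitted, as it was over all genes. It was 34 (28.6%, against 29.7% of all genes) without Late Vehicle mouse 6, the mouse with the lowest slope of its group. It was 0 without any of Late Vehicle mice 1, 3, 4 and 5 or Late SAFit2 mice 2, 4 and 5, where 1 to 8 of all 16765 genes were called. It was 7 to 11 without any of Early Vehicle mice 2 and 6, Early SAFit2 mice 4 and 5 and Late SAFit2 mouse 3, against 7.09% to 8.43% of all genes. It was 29 (24.4%, against 21.1% of all genes) without Late SAFit2 mouse 1. Neuronal markers summed to 4225 to 4762 CPM in Late SAFit2 and 3353 to 4324 CPM in Late Vehicle, and microglial markers to 405 to 484 and 430 to 465 CPM. Of the 6 neuronal markers only 3 had a late log2 fold change above 0, with a median of -0.02, and 1 was called lower. Snap25, the highest of them (median 11.5 log2 CPM over all mice), weighs most in the sum. The 2 of 2 markers listed for plasmacytoid dendritic cells summed to 10.1 to 26.1 CPM in Late SAFit2 and 7.30 to 14.5 CPM in Late Vehicle, nearly all of it Siglech, which microglia express as well, while Ccr9 was at most -0.43 log2 CPM in any mouse. Of 8 T and B cell markers 1, Cd79a, was in the table, at up to 1.10 CPM. The part of these in the late calls was not tested.

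**Figure D5:**
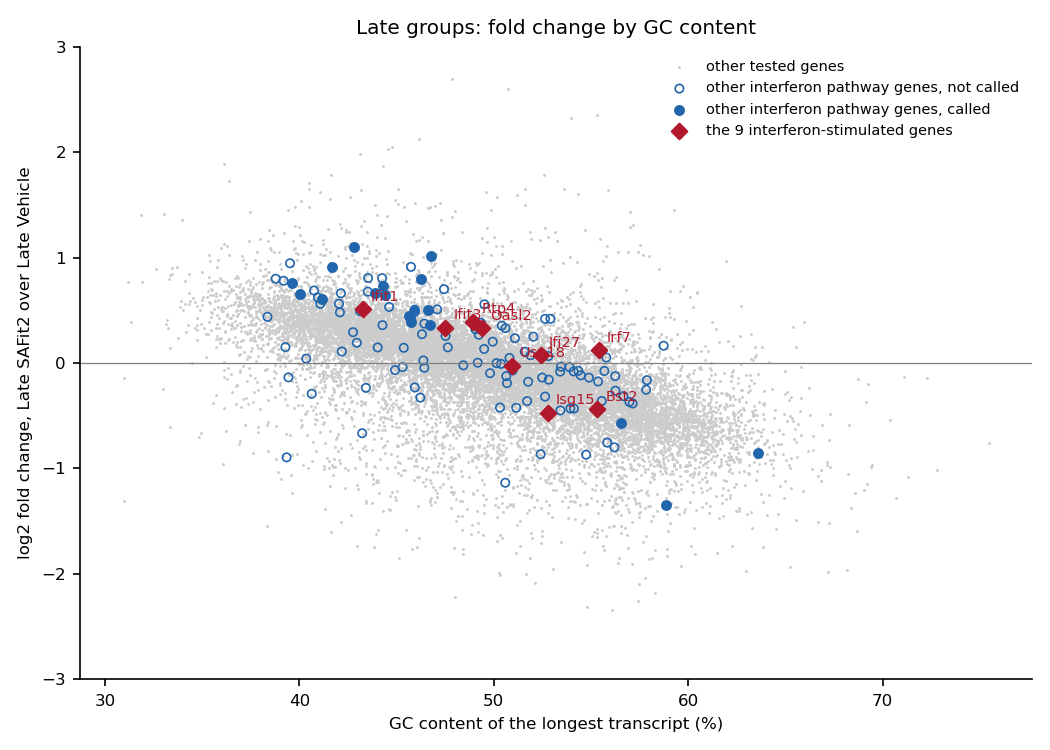
Log2 fold change of Late SAFit2 over Late Vehicle (vertical axis) against the GC content of the longest transcript in percent (horizontal axis), for 16201 tested genes (grey), the other interferon pathway genes (blue, filled where called) and the 9 members (red diamonds), with 3 genes beyond the axis limits of -3 and 3. All 15 called higher pathway genes sit below a GC content of 46.8% or at it, and the 3 called lower sit at 56.5% or above.

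For the mean of both effects, 16 of the 119 had an unadjusted p under 0.05 in limma (13.4%, against 13.2% of all genes), 9 higher and 7 lower with SAFit2. Without Late Vehicle mouse 3 the count was 10 (8.40%, against 9.01% of all genes). For the early minus the late effect limma called 0 of 119, and voom 0, with 30 at an unadjusted p under 0.05, against 4167 of 16765 genes. Without Late Vehicle mouse 6 it called 16 of 119, against 2513 of all 16765 genes. Between the Vehicle groups limma called 9 of 119 (7.56%), against 9.11% of all genes. In late mice 0 of 119 were higher and 9 lower, against 552 higher and 975 (5.82%) lower of all 16765 genes. The split was 4 higher and 10 lower with the GC and length trend removed, against 1270 higher and 1299 lower of all 16201 genes. With median centring it was 3 higher and 7 lower, against 1198 higher and 816 lower of all 16765 genes. The count was 5 (4.20%) without Early Vehicle mouse 5 or Late Vehicle mouse 5, against 6.43% and 6.49% of all genes. The 9 genes included Tyk2, the receptor kinase, at 1.95 ± 0.43 log2 CPM in Late and 3.13 ± 0.43 in Early Vehicle (SD, n = 6 each, difference -1.18, limma adjusted p = 0.00135), and Gbp7, at 2.42 ± 0.27 and 3.22 ± 0.33 (SD, n = 6 each, log2 fold change -0.80, limma adjusted p = 0.0137). Gbp7 was thus lowest in the Late Vehicle group, with which the late effect is formed. Mx2 (log2 fold change -2.09), Nlrc5 (-2.08), the activator of MHC class I genes, and Gbp4 (-1.15) were lower too, Mx2 with 2 to 6 reads per library in Late Vehicle. The 9 members themselves did not pass in this comparison, with limma adjusted p-values of 0.576 to 0.936.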

How the data were processed

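Per the methods and the labels, the authors trimmed paired-end reads, aligned them to mm10, quantified them with featureCounts and normalised libraries by TMM (trimmed mean of M-values). The submitters' processing notes name Trimmomatic, HISAT2 and edgeR. The deposited values are log2 CPM, with a floor of -3.15 for genes at 0 reads, so that fold changes of genes with few reads are understated. Reads worked back from them were whole in 100% of cases (tolerance 0.02 reads) and served for depth and for limma voom. No libraries were identical.

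All genes passing the filter were fitted in R 4.3.3 with limma 3.58.1, a mean per group and a variance trend, and p-values were adjusted by Benjamini-Hochberg over the 16765 genes. A gene was called at an adjusted p under 0.05 with a change of at least 1.2-fold, or, for the mean of both effects, at an unadjusted p under 0.05. Single genes were compared by two-sided exact permutation of mice. For the early minus the late effect mice were permuted within timing, which assumes no effect at either timing. The methods of the study use linear models as well. The scripts were tested on simulated data.

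For 16201 tested genes (96.6%) the longest GENCODE M21 transcript (GRCm38) gave GC content and length, and the trend of each library was removed by loess (span 0.5). Correlations and tables used Python 3.11.15, numpy 2.4.6, scipy 1.17.1 and pandas 2.3.3, and plots matplotlib 3.10.9. Intervals are those of limma, and the precision of low genes is limited by their reads.

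Groups came from the treatment and timing labels, and the labels name separate mice. Alternatives were other filters, pseudocounts of 0.5 and 2, no variance trend, median centring, quantile normalization, voom, a block for the replicate number, removal of GC and length trends, the compared mice alone and each mouse left out. Chosen after the data were seen were the genes with a GC content without removal, alternatives for single group means and all those of the wider pathway list. The members and lists were chosen with earlier results of these data known. Genes named are the members, the 3 genes most alike to each, a panel of pathway genes picked by role, and up to 5 called genes of the wider list per direction by lowest p. Some genes that this rule names are not reported here.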

Additional observations from a re-analysis of the deposited data

Results flagged for a closer look

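In 4 of 36 combinations of a member and a group, a single mouse stood apart from the rest of its group by Dixon's criterion, which chance alone meets in about 1 of 20 groups. Irf7 was -1.21 log2 CPM in Late Vehicle mouse 6, against 0.94 to 1.72 in the other 5 mice. Isg15 was -1.15 in Late SAFit2 mouse 5, against 1.31 to 1.65 in the other 4, and 2.29 in Early SAFit2 mouse 2, against 1.16 to 1.31 in the other 4. Bst2 was 1.74 in Late Vehicle mouse 2, against 2.10 to 2.30 in the other 5. Late Vehicle mice 6 and 2 were also the mice of that group with a negative GC slope (-0.321 and -0.164), whose part in these values was not tested. The early and the late effect differed at an adjusted limma p under 0.05 in 0 members (1, Ifit3, at an unadjusted p under 0.05, and 0 adjusted in voom).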

How the results depend on the processing

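The count of 0 members called held in all 5 comparisons under every alternative run except a single mouse left out, where it ranged from 0 to 2 for the late effect and from 0 to 1 for the mean effect, both upper values without Late SAFit2 mouse 1. Of the 27 early, late and early minus late log2 fold changes of members, 15 kept their sign under every alternative and 12 changed it at least once (29 changes in 936 values). Late Irf7 became -0.00963 with log2(CPM + 2) and -0.0800 with the replicate block. Late Usp18 became 0.0125 with log2(CPM + 0.5), 0.0312 with log2(CPM + 2), 0.0290 with median centring, 0.0886 with quantile normalization, 0.00901 with the replicate block and 0.0293 with that block and GC removal, and early Rtp4 0.0454 with the last of these. With each mouse left out, early values ran from -0.208 to 0.0132 for Ifit1, from -0.279 to 0.0252 for Bst2, from -0.372 to 0.00317 for Usp18, from -0.131 to 0.0155 for Rtp4 and from -0.0548 to 0.133 for Ifi27, late values from -0.30 to 0.29 for Irf7, from -0.652 to 0.0487 for Isg15, from -0.26 to 0.30 for Usp18 and from -0.0356 to 0.138 for Ifi27, and early minus late values from -0.29 to 0.41 for Isg15, from -0.542 to 0.0287 for Usp18 and from -0.128 to 0.0612 for Ifi27. Members with an exact permutation p under 0.05 in the early, late or Vehicle comparison numbered 0 of 27 values and 0 to 2 with a mouse left out. For the wider pathway list, the late count of 18 became 0 without the variance trend, 0 with GC removal, alone or with the replicate block, 0 with only the late mice and 7 with voom, and ran from 0 to 34 with a mouse left out. Over all genes the late count of 2021 became 62 without the variance trend, 0 with GC removal, 0 with only the late mice and 876 with voom. The mean effect count of 16 became 8 with GC removal (6.72%, against 7.65% of all genes). It became 4 with the replicate block added (3.36%, against 7.86% of all genes). With a mouse left out it ran from 10 to 23, the upper count (19.3%, against 22.5% of all genes) without Late Vehicle mouse 6. The Vehicle count of 9 became 5 with quantile normalization (4.20%, against 6.94% of all genes). It became 14 with GC removal, alone (11.8%, against 15.9% of all genes) or with the block (11.8%, against 15.5%). The Vehicle count ran from 5 to 12 with a mouse left out, and the early minus late count of 0 from 0 to 16. The causes were not tested. The median r between members was 0.0124 in late mice alone and ran from 0.0878 to 0.201 with a mouse left out (jackknife standard error 0.10). Replicate numbers were not taken to pair the mice in the main fit. Of 10 pairs with the same timing and number, 2 had a correlation of deviations above 0.1 (from -0.24 to 0.32). Low correlations cannot exclude a pairing. The replicate block gave 24 late calls in the wider list (20.2%, against 18.8% of all genes), 0 members called and a median r of 0.14. All genes called in late mice ranged from 1 to 4971 with a mouse left out. Depth limits Irf7, Usp18 and Isg15, with as few as 4, 6 and 3 reads in a mouse.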
